A study of Mus musculus with 18 samples.

Results

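The genes described here are 4 cytosolic aminoacyl-tRNA synthetases, Lars (leucine), Eprs (glutamate and proline), Sars (serine) and Wars (tryptophan), and Xpot, the exportin that carries tRNA out of the nucleus. They were measured in the brains of Aldh5a1-/- mice (KO), which carry a null genotype for succinate semialdehyde dehydrogenase, the enzyme that completes the breakdown of the transmitter GABA, and of wild-type mice (WT). A probe set, the group of short probes that measures 1 transcript on an Affymetrix array, counted as a member when its only annotated gene symbol was that of a member gene. This gave 8 of the 12488 probe sets on the array, for 5 of 8252 named genes: Lars, Eprs and Sars had 1 each, Wars had 3 and Xpot had 2. RNA of hippocampus, cortex and cerebellum from 3 KO and 3 WT mice was hybridised to 18 arrays, 1 per animal and region, so that each group holds 3 arrays. The labels used here give each mouse an animal number (KO 3363, 3389 and 3403, and WT 3405, 3406 and 3396) and its genotype, and no age, sex or strain was taken from them. The genotype rests on the labels alone, since 0 probe sets carry the symbol Aldh5a1. The genes were proposed with results of these same arrays known. Which values they were chosen by is not stated, so all KO minus WT differences were treated as used: they are given as a description, with no p-value for any member, and counts of members past a threshold are printed only beside the share of all probe sets.

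An aminoacyl-tRNA synthetase joins an amino acid to the tRNAs that carry its anticodons, which supplies the ribosome with its substrates. In animal cells the leucine and glutamate-proline enzymes sit in a large multisynthetase complex held together by the scaffold proteins Aimp1, Aimp2 and Eef1e1, whereas the serine and tryptophan enzymes act outside it. Wars is also known as an interferon-induced gene. Xpot binds mature tRNA together with Ran in its GTP-bound form and releases it in the cytoplasm. Several cytosolic synthetase genes and Xpot are known targets of Atf4, the transcription factor of the amino acid response, which answers a shortage of amino acids or other stress through phosphorylation of eIF2alpha.

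DNA upstream of an annotated start site of the members is shown because these genes are known for control through Atf4, which binds C/EBP-ATF composite elements and cAMP response elements. Windows of 250 bases ending at the base before the start site given by RefSeq (build GRCm38.p6) were taken for Eprs, Sars and Xpot, 3 of the 5 members. The annotated gene reaches further upstream than this start site for 2 of them: all 250 bases of the Eprs window and 174 of the Xpot window lie inside the annotated gene, against 0 for Sars. They are printed 5′ to 3′ on the strand of the gene, and capitals mark matches to TGACG, the core letters of a cAMP response element, on either strand (read as CGTCA where the match is on the opposite strand). The windows are, in order, chr1:185362794-185363043 on the plus strand (Eprs, 64% G and C), chr3:108445260-108445509 on the minus strand (Sars, 52.4% G and C) and chr10:121626333-121626582 on the minus strand (Xpot, 71.6% G and C).
Eprs: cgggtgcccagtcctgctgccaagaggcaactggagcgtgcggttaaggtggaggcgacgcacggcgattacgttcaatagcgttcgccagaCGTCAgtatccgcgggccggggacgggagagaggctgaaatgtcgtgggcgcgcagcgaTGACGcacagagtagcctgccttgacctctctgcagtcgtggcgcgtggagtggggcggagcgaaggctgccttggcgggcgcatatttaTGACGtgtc
Sars: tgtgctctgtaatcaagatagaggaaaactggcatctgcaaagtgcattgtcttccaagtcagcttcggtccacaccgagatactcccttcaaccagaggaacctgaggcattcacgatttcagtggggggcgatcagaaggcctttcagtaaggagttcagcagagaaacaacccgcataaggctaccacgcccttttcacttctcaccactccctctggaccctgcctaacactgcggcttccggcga
Xpot: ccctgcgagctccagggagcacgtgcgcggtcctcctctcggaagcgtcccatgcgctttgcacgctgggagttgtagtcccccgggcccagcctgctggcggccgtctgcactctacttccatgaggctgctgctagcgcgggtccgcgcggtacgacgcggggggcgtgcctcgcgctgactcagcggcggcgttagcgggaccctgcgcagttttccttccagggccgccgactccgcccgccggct
The Eprs window held 3 matches to TGACG, at -99 to -95 and -9 to -5 on the strand of the gene and at -158 to -154 on the opposite strand, counted back from the start site. The Sars and Xpot windows held 0. TGACG occurred on either strand in 17.8% of 32851 windows of this length, and in 4 of 11 windows of other cytosolic synthetases (Farsb, Mars, Tars and Yars). TGATGNAA, the core letters of a C/EBP-ATF composite element (TTNCATCA on the opposite strand), was in none of these 3 windows, in 3.45% of all windows and in 3 of the 11 (Aars, Gars and Tars). Both motifs were chosen after the sequences were seen, the letters do not overlap between them, and a match is a run of letters, not a site.

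All values are the authors' scaled signal intensities, compared on the log2 scale. Of the 8 member probe sets, 7 passed the filter on dim signal, among 8382 in all. The arrays of a group had a Pearson r of 0.955 to 0.976 with each other across genes, which do not replicate each other, and the median signal of an array was 53.5 to 64.8. The region was taken from the title's end (Hippo, Cort or Cereb), because the source field and the start of every title read hippocampus. By these endings, 18 of 18 arrays were most similar to the other arrays of their own region. In WT mice 7 of 7 cerebellum, 6 of 6 hippocampus and 3 of 3 cortex markers had their highest mean in their own region. The number of arrays, 3 a group, limits the precision of every value below.

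Lars, the leucine enzyme, was the only kept member probe set whose KO arrays lay wholly above the WT arrays in 2 regions, hippocampus and cortex. In hippocampus probe set 103630_at read 262, 275 and 276 in KO mice, against 213, 213 and 213 in WT mice. The 3 KO arrays were all above the WT arrays, with means of 271 ± 7.65 in KO and 213 ± 0.232 in WT (SD, n = 3 each), a log2 difference of 0.35 ± 0.10 (SE) or 1.27-fold. In cortex the signals were 289.6, 252 and 278 in KO mice, against 231, 240.4 and 248 in WT mice. The lowest KO array was just above the highest WT array, and the log2 difference was 0.19 ± 0.10. In cerebellum the signals of 236, 239 and 216 in KO mice overlapped with the 226, 219 and 189 in WT mice (log2 difference 0.13 ± 0.10, and 0.05 without WT animal 3396). Averaged over the regions within each animal, Lars had geometric mean signals of 262, 255 and 255 in KO mice, against 215, 223 and 224 in WT mice, a log2 difference of 0.22 ± 0.07 with every KO animal above every WT animal.

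Eprs, the enzyme that charges both glutamate and proline tRNAs, had its largest difference in hippocampus as well, with more spread. Probe set 96628_at read 148, 231 and 186 in KO hippocampi, against 131, 112 and 153 in WT hippocampi. The lowest KO array, that of animal 3363, lay below the highest WT array, so the groups overlapped. The means were 188 ± 41.2 in KO and 132 ± 20.7 in WT (SD, n = 3 each), and the log2 difference was 0.50 ± 0.18 or 1.41-fold. In cortex Eprs read 108, 141 and 161 in KO mice, against 106, 143 and 128 in WT mice. In cerebellum it read 157, 186 and 177 in KO mice, against 187, 198 and 163 in WT mice. The groups overlapped in both regions, and the log2 differences of 0.11 ± 0.18 in cortex and -0.07 ± 0.18 in cerebellum were smaller than their standard errors. The cortical value was -0.02 without KO animal 3403 and 0.28 without KO animal 3363.

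Sars, the serine enzyme, read 244, 218 and 239 on probe set 98936_at in KO hippocampi, against 201, 187 and 198 in WT hippocampi. The KO arrays were all above the WT arrays, with a log2 difference of 0.26 ± 0.17 or 1.20-fold. In cortex the values were 176, 211 and 194 in KO mice, against 207, 179 and 197 in WT mice, with means of 194 ± 17.2 in KO and 194 ± 14.3 in WT (SD, n = 3 each). In cerebellum they were 195, 214 and 227 in KO mice, against 257, 212 and 135 in WT mice. The 3 WT cerebella spanned a wider range than any other group of this gene and enclosed the KO arrays, and the log2 difference of 0.12 ± 0.17 was -0.14 without WT animal 3396, whose value was the lowest, and 0.32 without WT animal 3405.

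Wars, the tryptophan enzyme, is measured by 3 probe sets, and they disagreed. On 98605_at the KO hippocampi read 434, 397 and 422, against 356, 389.7 and 313 in WT hippocampi. The groups did not overlap, and the log2 difference was 0.25 ± 0.10 or 1.19-fold, and 0.16 without WT animal 3396. The same probe set read 343, 356 and 357 in KO cortex, against 374, 358 and 324 in WT cortex, a log2 difference of 0.00 ± 0.10. In cerebellum it read 327, 329.9 and 300.2 in KO mice, against 349, 331 and 336 in WT mice, so that the KO arrays were all below the WT arrays by a small margin (log2 difference -0.09 ± 0.10).

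The brighter Wars probe set, 98606_s_at, whose suffix marks probes shared by several transcripts, had its difference in another region. In cortex it read 367, 357 and 401 in KO mice, against 229, 297 and 198 in WT mice. The KO arrays were all above the WT arrays, with means of 375 ± 23.2 in KO and 241 ± 50.5 in WT (SD, n = 3 each) and a log2 difference of 0.66 ± 0.15 or 1.57-fold, the largest of the 7 kept member probe sets in any region. In hippocampus its signals of 363, 347 and 402 in KO mice overlapped with the 349.6, 395 and 366 in WT mice (log2 difference 0.00 ± 0.15). In cerebellum they were 486, 543 and 554 in KO mice, against 546, 494 and 362 in WT mice. The log2 difference of 0.20 ± 0.15 was 0.02 without WT animal 3396 and 0.32 without WT animal 3405. Over the regions together, the geometric means of 402, 407 and 447 in KO mice were all above the 297, 352 and 387 in WT mice (log2 difference 0.28 ± 0.10, and 0.18 without WT animal 3396). In cortex the ratio of the 3′ to the 5′ control probe sets of Gapdh also differed between the genotypes, at 0.804 ± 0.00773 in KO and 0.903 ± 0.0202 in WT (SD, n = 3 each), while that of actin was 1.77 in both. The part of this ratio in the cortical difference of Wars was not tested.

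The third Wars probe set, 161337_f_at, whose suffix marks probes shared within a sequence family, was dim and went the other way. Its KO mean was below its WT mean in each region: 59.9 ± 7.82 in KO and 72.7 ± 17.0 in WT in hippocampus, 60.7 ± 17.6 in KO and 84.7 ± 14.5 in WT in cortex, and 51.3 ± 10.1 in KO and 56.5 ± 17.4 in WT in cerebellum (SD, n = 3 each). The KO and WT arrays overlapped in all 3 regions, and the log2 difference was -0.26 ± 0.27, -0.51 ± 0.27 and -0.11 ± 0.27 in that order of regions. The cortical value was -0.24 without KO animal 3389, and the cerebellar value was 0.11 without WT animal 3396. With region means taken out, the log2 values of 98605_at and 98606_s_at correlated with a Pearson r of 0.08 over the 18 arrays, and those of 161337_f_at and 98606_s_at with -0.32. The arrays share 6 animals, so these values are descriptions.

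Xpot, the tRNA exportin, had small differences of similar size in the 3 regions. Probe set 94340_at read 359.6, 267 and 293 in KO hippocampi, against 321, 190.5 and 323 in WT hippocampi. In cortex it read 324, 302 and 303 in KO mice, against 288, 235 and 278 in WT mice, and here the groups were apart. In cerebellum it read 223, 192 and 250.4 in KO mice, against 252, 164 and 178 in WT mice. The log2 differences were 0.17 ± 0.19 in hippocampus, 0.22 ± 0.19 in cortex and 0.18 ± 0.19 in cerebellum. WT animal 3406 had the lowest Xpot signal of its group in all 3 regions, and without it the differences were -0.08 in hippocampus, 0.13 in cortex and 0.06 in cerebellum. The other Xpot probe set, 161797_r_at, did not pass the filter: its 9 KO arrays lay between 20.3 and 32.1 and its 9 WT arrays between 1.15 and 40.4, with 4 of the WT arrays under the floor of 9.46 and 0 of the KO arrays.

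**Figure D1:**
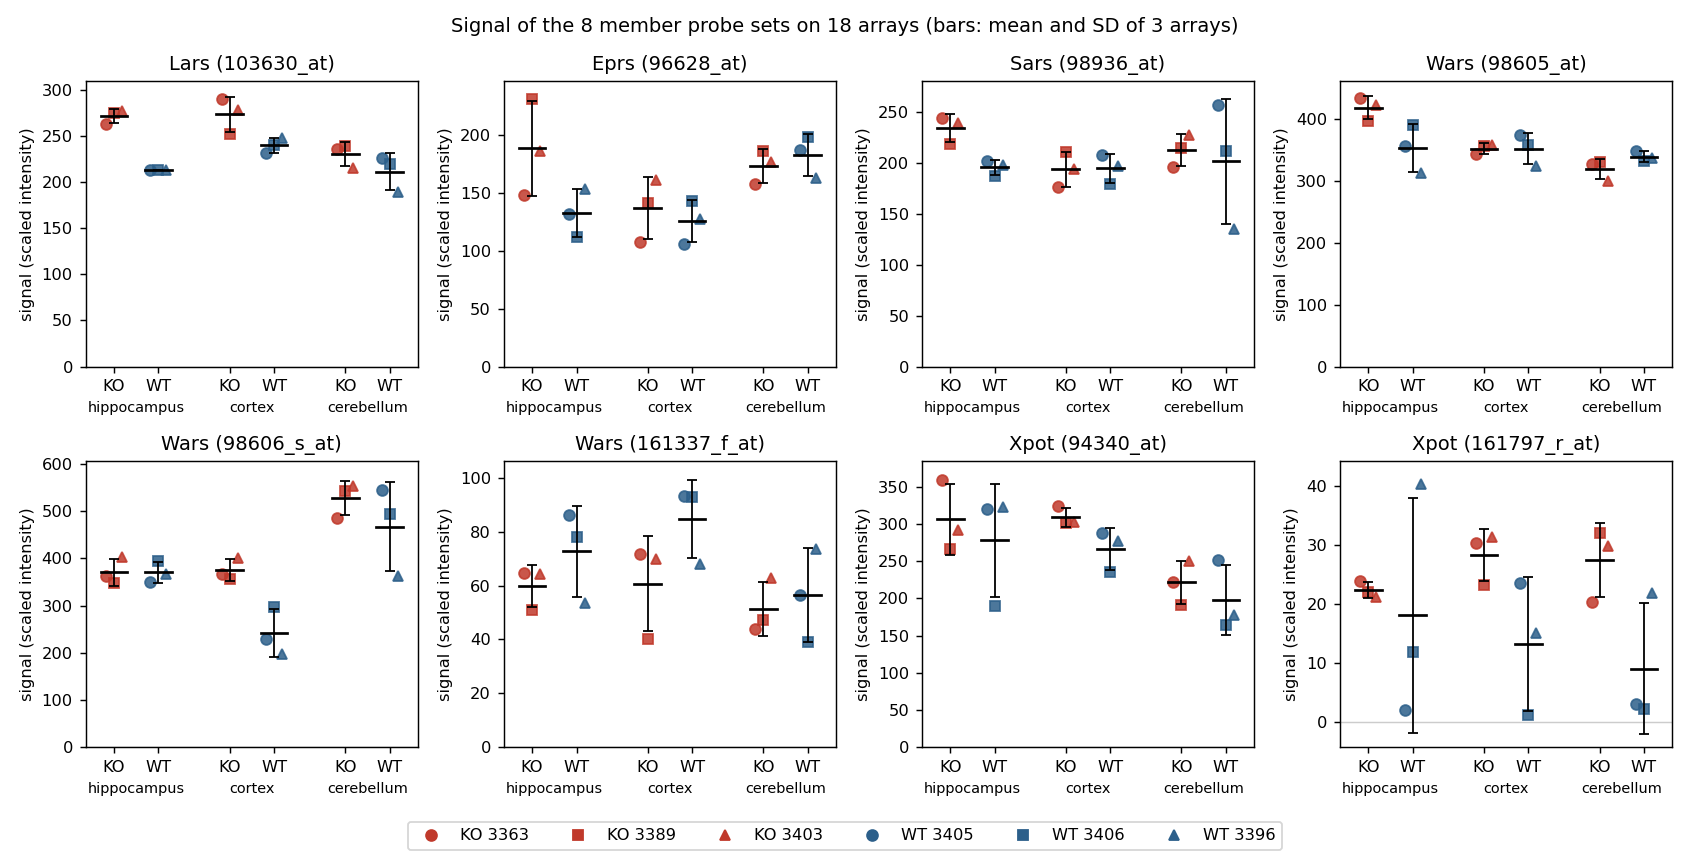
Signal intensity (linear scale) of the member probe sets in each region, with 1 point per array, KO left of WT, and the mean with its SD as bars. In hippocampus the 3 KO points of Lars, Sars and Wars 98605_at lie above the WT points, and in cortex those of Lars, Wars 98606_s_at and Xpot 94340_at do.

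Counted over the 7 kept member probe sets, the KO arrays were wholly above the WT arrays for 3 in hippocampus (Lars, Sars and Wars 98605_at), where 10.4% of all kept probe sets were. In cortex the count was also 3 (Lars, Wars 98606_s_at and Xpot), against 7.05% of all, and in cerebellum it was 0, against 7.53%, with 1 member (Wars 98605_at) wholly below, against 7.8%. In the mean of the regions it was 2 (Lars and Wars 98606_s_at), against 8.59% of all. Since these differences were known when the genes were proposed, nothing is read from these counts. At an adjusted p of 0.05 in limma, 0 of 7 member probe sets were called in hippocampus, cortex, cerebellum or the mean of the regions, where 0.119%, 0.286%, 0.0358% and 0.179% of all kept probe sets were called. Of all calls, 30% in hippocampus, 20.8% in cortex, 0% in cerebellum and 20% in the mean of the regions were higher in KO. After median centring these shares were 14.3%, 27.6%, 6.25% and 8.70%. They rest on few calls, 10, 24, 3 and 15 before centring and 14, 29, 16 and 23 after it. At an unadjusted p under 0.05 the members counted 3 in hippocampus, 1 in cortex, 0 in cerebellum and 2 in the mean of the regions, where 8.41%, 10.2%, 12.1% and 10.1% of all kept probe sets were past it.

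With each gene represented by its brightest probe set, the median log2 difference over the 5 members was 0.26 in hippocampus, 0.19 in cortex, 0.13 in cerebellum and 0.19 in the mean of the regions. The medians over all kept probe sets were 0.02, 0.00, 0.03 and 0.02 in the same order. The central 90% of all kept probe sets reached from -0.40 to 0.50 in hippocampus and from -0.47 to 0.48 in cortex. The hippocampal difference of Eprs was at the upper end of that range and the cortical one of Wars 98606_s_at beyond it. Beyond the lower end in cortex was another probe set of Wars, 161337_f_at, at -0.51. All 5 members were above 0 in hippocampus and in the mean of the regions, where 54.6% of all kept probe sets were, though Wars 98606_s_at was at 0.00 in hippocampus and at -0.09 there after median centring. In cortex 4 of 5 were above 0, against 50.5% of all, and in cerebellum 4 of 5, against 55.6%. The exceptions were Sars in cortex (-0.01, and 0.01 after median centring) and Eprs in cerebellum. The cerebellar median was 0.02 without WT animal 3396 and 0.32 without WT animal 3405, and it was 0.05 after median centring. The cortical median was 0.11 when all kept probe sets of a member were averaged.

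**Figure D2:**
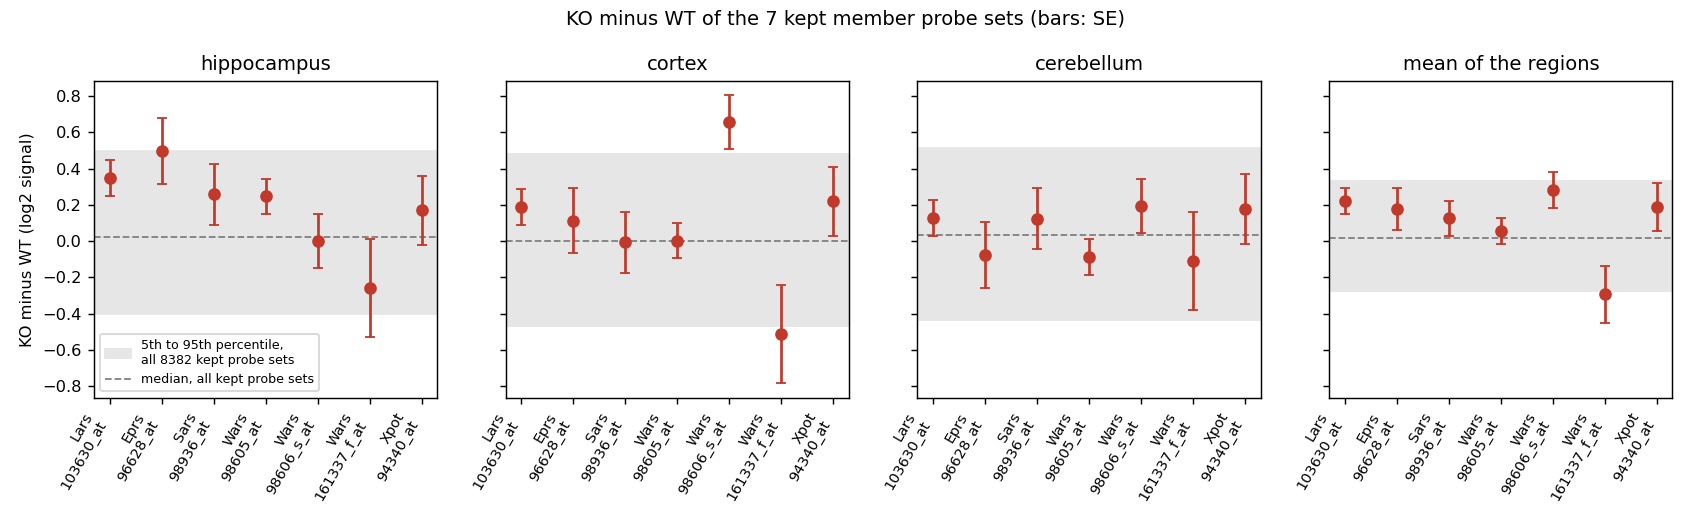
KO minus WT difference in log2 signal of the 7 kept member probe sets in hippocampus, cortex, cerebellum and the mean of the regions, with bars of 1 SE, beside the spread of all kept probe sets. Wars 98606_s_at in cortex (0.66) and Eprs in hippocampus (0.50) have the largest positive values, and Wars 161337_f_at is below 0 in every panel.

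Signs of other cell types moved with genotype in the same tissue samples. The summed signal of 7 oligodendrocyte markers was 3919 to 5028 in KO and 5815 to 8791 in WT hippocampus, and 3324 to 4199 in KO and 6299 to 8086 in WT cortex, with 6 and 7 of the 7 markers lower in KO. In cerebellum it was 7190 to 7906 in KO and 7750 to 8900 in WT, which overlap. The summed signal of 8 microglia markers was 1341 to 1715 in KO and 1235 to 1286 in WT hippocampus, with 7 of 8 higher in KO, and overlapped in the other regions. The summed signal of 6 neuron markers was 12107 to 12473 in KO and 12897 to 13927 in WT cortex, and 8496 to 9371 in KO and 9652 to 11266 in WT cerebellum, with 3 of 6 and 6 of 6 markers lower in KO. In cortex the summed signal of 6 astrocyte markers was 4272 to 5055 in KO and 5082 to 5280 in WT, with 4 of 6 lower in KO, and in hippocampus that of 6 hippocampus markers was 2876 to 3236 in KO and 2380 to 2719 in WT, with 5 of 6 higher in KO. The sums of 4 choroid plexus markers overlapped in every region, but all 4 were higher in KO cerebellum on average, at 2237 to 2986 in KO and 1108 to 3221 in WT, with a median log2 difference of 1.74, 0 called by limma and 3 at an unadjusted p under 0.05. The sums of the endothelial, cerebellum and cortex markers overlapped between the genotypes in every region. At most 1 of the 7 oligodendrocyte markers and 2 of the 8 microglia markers had a mean under the floor in any group. In bulk tissue, fewer cells of a type and less RNA per cell cannot be told apart, and the part of cell make-up in the differences of the members was not tested.

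The level of the members also differed between the regions of WT mice, which was tested across all kept probe sets with limma. These tests use the same WT arrays as the KO minus WT differences, so they are not independent of the choice of genes. The same differences with both genotypes averaged, in which KO and WT arrays weigh alike, are given beside them. Among the 5 members, each by its brightest probe set, 2 were called between cerebellum and cortex (Eprs and Wars), 1 between hippocampus and cortex (Wars) and 0 between cerebellum and hippocampus. The share of all kept probe sets called was 40.8%, 12.5% and 29.1% in the same order, and of these calls 43.6%, 50.7% and 47.9% were higher in the region named first. The members' 2 of 5 and 1 of 5 lie near these shares, and 0 of 5 lies below its share. Centring each array on its median raised all differences of cerebellum by 0.17 against cortex and by 0.11 against hippocampus, and made 63.8%, 62.3% and 62.2% of the calls higher. The ratio of the 3′ to the 5′ control probe sets of actin was 1.69 to 1.93 in WT cortex. It was lower in WT hippocampus (1.09 to 1.46) and WT cerebellum (1.18 to 1.37). The Gapdh ratio was 0.885 to 0.924 in WT cortex, 0.812 to 0.890 in WT hippocampus and 0.788 to 0.801 in WT cerebellum. The part of these ratios in the regional differences was not tested.

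Wars on 98606_s_at had the widest regional range. Its WT means were 467 ± 94.8 in cerebellum, 370 ± 23.1 in hippocampus and 241 ± 50.5 in cortex (SD, n = 3 each). The cerebellum was above the cortex by 0.95 ± 0.15 on the log2 scale or 1.94-fold (adjusted p = 5.64e-05, limma), and all 3 cerebella were above all 3 cortices. The hippocampus was above the cortex by 0.64 ± 0.15 or 1.56-fold (adjusted p = 0.00846, limma), again without overlap. The same WT cortices enter the cortical KO minus WT difference of this probe set, so this p is not independent of the choice of genes. The KO means were 528 in cerebellum, 371 in hippocampus and 375 in cortex, so that the KO hippocampus was not above the KO cortex. With both genotypes averaged, the differences from cortex were 0.72 for cerebellum (adjusted p = 1.39e-05) and 0.31 for hippocampus (adjusted p = 0.0377), both by limma. Cerebellum and hippocampus overlapped, with a difference of 0.32 ± 0.15 (adjusted p = 0.119, limma) that was past the threshold without WT animal 3396 (0.48, adjusted p = 0.0206, limma). The probe set 98605_at of the same gene had WT means of 339 in cerebellum, 353 in hippocampus and 352 in cortex, with adjusted p of 0.690 or more in every pair of regions by limma, though with both genotypes averaged its cerebellum was below its hippocampus by 0.22 (adjusted p = 0.0124, limma). Its cerebellar differences, -0.05 against either other region, were 0.06 against hippocampus and 0.12 against cortex after median centring. The probe set 161337_f_at ran the other way, with WT means of 56.5 in cerebellum, 72.7 in hippocampus and 84.7 in cortex, and its cerebellum was below its cortex by 0.62 ± 0.27 (adjusted p = 0.0760, and 0.0170 without WT animal 3396, limma).

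Eprs was highest in WT cerebellum, at 183 ± 18.3, against 132 ± 20.7 in hippocampus and 126 ± 18.4 in cortex (SD, n = 3 each). Its cerebellar arrays were above all arrays of either other region. The difference from cortex was 0.55 ± 0.18 on the log2 scale or 1.46-fold (adjusted p = 0.0225, limma), and that from hippocampus was 0.47 ± 0.18 (adjusted p = 0.0578). The call against cortex was lost without WT animal 3405 (0.41, adjusted p = 0.201) or 3406 (0.58, adjusted p = 0.0594), both by limma. With the animal as a replicate block, the difference between cerebellum and hippocampus was past the threshold (adjusted p = 0.0352, limma). Hippocampus and cortex, neighbours in this order, differed by 0.07 ± 0.18. With both genotypes averaged, the cerebellum was above the cortex by 0.45 (adjusted p = 0.00626) and above the hippocampus by 0.19 (adjusted p = 0.238), both by limma.

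Xpot on 94340_at was lowest in WT cerebellum, with means of 198 ± 47.4 in cerebellum, 278 ± 76.1 in hippocampus and 267 ± 27.8 in cortex (SD, n = 3 each). The cerebellum was 0.47 ± 0.19 below the hippocampus on the log2 scale (adjusted p = 0.0722, limma) and 0.45 ± 0.19 below the cortex (adjusted p = 0.0698), so neither difference passed. With the animal as a replicate block, both were past the threshold by limma (adjusted p = 0.0181 and 0.0183 in that order). They were also past it with both genotypes averaged, at -0.47 for each (adjusted p = 0.00805 and 0.00728, limma). Lars had WT means of 211 in cerebellum, 213 in hippocampus and 240 in cortex, with the cortical arrays above all others. No adjusted p of Lars was below 0.146 by limma. With both genotypes averaged, its cerebellum was below its cortex by 0.22 (adjusted p = 0.0154, limma), which was not fitted after median centring. Centring raised the WT difference of cerebellum from cortex by 0.17 for every probe set, and that of Lars was -0.19 before it. Sars was level, with WT means of 201 in cerebellum, 195 in hippocampus and 194 in cortex and adjusted p of 0.982 or more by limma.

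**Figure D3:**
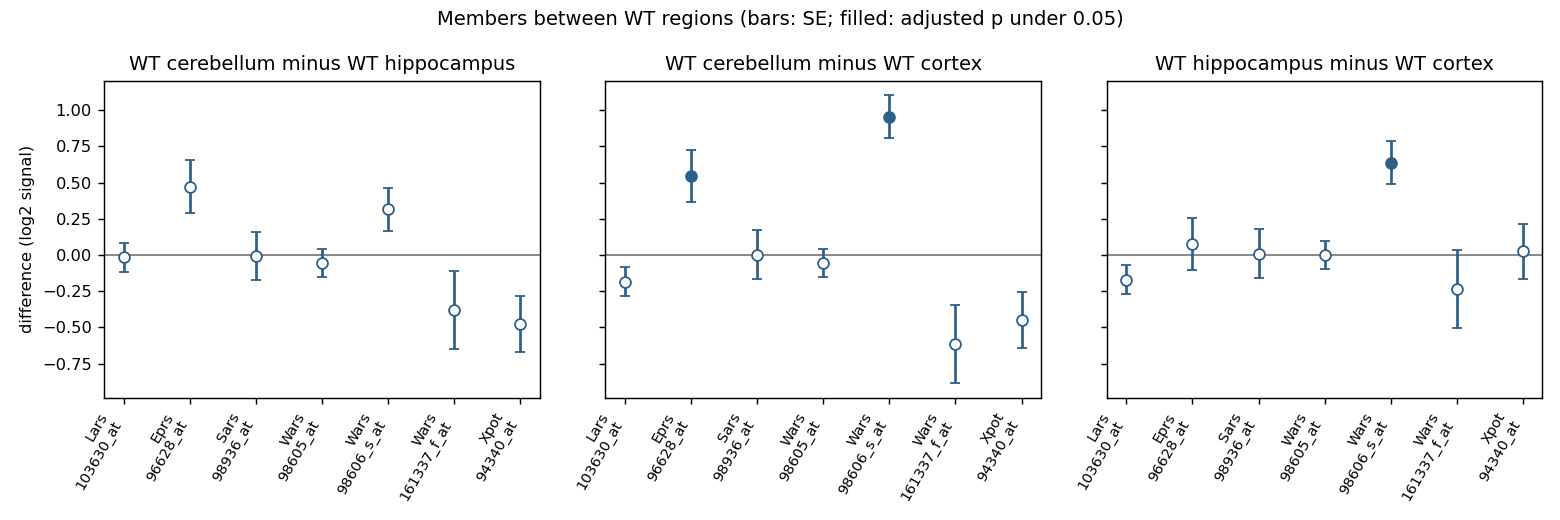
Differences in log2 signal between WT regions for the 7 kept member probe sets, with bars of 1 SE and filled points where the adjusted p is under 0.05. Wars 98606_s_at is filled against cortex for both other regions, Eprs is filled for cerebellum against cortex, and Sars and Wars 98605_at lie near 0 in each panel.

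The other genes of tRNA charging were set beside the members. Of 16 further cytosolic synthetase genes, 15 had a kept probe set, and 0 of 15 were called in any of the KO and WT comparisons by limma. At an unadjusted p under 0.05 there were 0 in hippocampus, 2 in cortex (both lower in KO) and 5 in cerebellum (3 higher and 2 lower). In the mean of the regions there were 2 (both higher). Of all kept probe sets, 8.41%, 10.2%, 12.1% and 10.1% were past it in that order. The median log2 difference of the 15 was -0.02 in hippocampus, 0.07 in cortex, 0.04 in cerebellum and 0.03 in the mean of the regions. In that order 6, 11, 9 and 8 of 15 were above 0, against 54.6%, 50.5%, 55.6% and 54.6% of all kept probe sets. The lowest p belonged to Vars, the valine enzyme, in cerebellum. It read 182, 162 and 180 in KO mice, against 221, 276 and 244 in WT mice, a log2 difference of -0.50 ± 0.13 (adjusted p = 0.141, limma), and the KO arrays were all below the WT arrays.

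Among the other enzymes, Kars had log2 differences of opposite sign in hippocampus and cortex. So had Aars, Gars, Iars, Qars, Rars, Tars, Vars and Yars, with smaller differences in both regions. The means of Hars and Farsa were lower in KO in all 3 regions, and those of Cars, Nars, Farsb and Mars higher. Kars, the lysine enzyme and a member of the multisynthetase complex, had signals of 64.1 ± 3.39 in KO and 52.7 ± 7.61 in WT hippocampus, but 41.8 ± 11.1 in KO and 61.0 ± 11.5 in WT cortex (SD, n = 3 each). Its log2 differences were 0.29 ± 0.23 (adjusted p = 0.762) and -0.56 ± 0.23 (adjusted p = 0.398) by limma. Hars, the histidine enzyme, differed by -0.31 ± 0.15 in cortex (adjusted p = 0.486, limma). Farsa, a subunit of the phenylalanine enzyme, was lower in all KO cerebella than in all WT cerebella (-0.42 ± 0.16, adjusted p = 0.287, limma). In the mean of the regions the lowest p were those of Cars, the cysteine enzyme (0.36 ± 0.15, adjusted p = 0.459, limma), and Nars, the asparagine enzyme (0.19 ± 0.09, adjusted p = 0.491, limma).

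The genotype by region interaction is given for the other genes of the pathway and not for the members, whose KO minus WT differences it uses. None of the 15 cytosolic enzymes was called in it by limma, where 0.0477% of all kept probe sets were, with 2 at an unadjusted p under 0.05, where 9.01% of all kept probe sets were. The lowest adjusted p was 0.387, for Vars. Between WT regions, Vars was higher in cerebellum than in cortex by 0.89 ± 0.13 (adjusted p = 2.94e-05, limma), and Farsa by 0.53 ± 0.16 (adjusted p = 0.0153, limma). Iars, the isoleucine enzyme, was lower in cerebellum than in cortex by 0.56 ± 0.10 (adjusted p = 0.000196, limma), and Hars by 0.51 ± 0.15 (adjusted p = 0.0103, limma). The regional order of Eprs and of Wars 98606_s_at, with cerebellum above cortex, was found in some of the other enzymes and not in others.

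The mitochondrial synthetases, the scaffolds and the export machinery gave no calls between KO and WT. Beside the counts below, 8.41%, 10.2% and 12.1% of all kept probe sets had an unadjusted p under 0.05 in hippocampus, cortex and cerebellum. Of 17 mitochondrial enzymes, 5 had a kept probe set and 0 were called in any KO and WT comparison by limma, with 1 at an unadjusted p under 0.05 in hippocampus (Sars2), 0 in cortex and 1 in cerebellum (Tars2). Sars2, the mitochondrial serine enzyme, had signals of 186 ± 13.9 in KO and 147 ± 16.8 in WT hippocampus (SD, n = 3 each), a log2 difference of 0.34 ± 0.16 (adjusted p = 0.580, limma). The scaffold Aimp1 differed by 0.13 ± 0.15 in hippocampus, 0.16 ± 0.15 in cortex and -0.16 ± 0.15 in cerebellum, and Aimp2 by -0.09 ± 0.14, 0.11 ± 0.14 and 0.11 ± 0.14, with 0 of both at an unadjusted p under 0.05. Of the exportins and Ran-cycle genes other than Xpot, 9 of 12 were kept and 0 were called, with 1, 0 and 1 at an unadjusted p under 0.05 in hippocampus, cortex and cerebellum. Ranbp1, which helps to release cargo from exportins, differed by -0.28 ± 0.12 in hippocampus (adjusted p = 0.555, limma), and Rangap1, the GTPase activator of Ran, by -0.55 ± 0.20 in cerebellum (adjusted p = 0.269, limma).

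Genes of tRNA processing and modification gave 15 kept of 28 and 0 calls by limma. Their medians were 0.05 in hippocampus, 0.05 in cortex and 0.01 in cerebellum. At an unadjusted p under 0.05 there were 2, 0 and 1 in that order. Of all kept probe sets, 8.41%, 10.2% and 12.1% were past it, which also stands beside the counts of the lists below. Tsen34, a subunit of the endonuclease that removes tRNA introns, differed by 0.36 ± 0.12 in hippocampus (adjusted p = 0.417, limma), and Elp3, of the Elongator complex that modifies wobble uridines, by 0.32 ± 0.14 (adjusted p = 0.555, limma). Pus1, a pseudouridine synthase that modifies tRNA, had log2 differences of -0.94 ± 0.58, -0.85 ± 0.58 and -0.91 ± 0.58 in hippocampus, cortex and cerebellum (adjusted p = 0.695, 0.659 and 0.566, limma). The elongation factors of translation gave 5 kept of 6 and 0 calls, with 0, 1 and 3 at an unadjusted p under 0.05 in hippocampus, cortex and cerebellum. Eef1a2, the neuronal form of elongation factor 1 alpha, differed by -0.35 ± 0.13 in cerebellum (adjusted p = 0.277, limma). Of 20 interferon-induced genes, a group to which Wars is also counted, 8 were kept and 0 were called, with 1, 1 and 0 at an unadjusted p under 0.05 in hippocampus, cortex and cerebellum and medians of 0.25, 0.21 and 0.09. In cortex 5 of the 8 were above 0 and 3 below, from -0.82 to 0.47, and in hippocampus 6 were above and 2 below. The shares of all kept probe sets above 0 were 50.5% in cortex and 54.6% in hippocampus. H2-D1, a class I histocompatibility gene, had signals of 229 ± 33.5 in KO and 164 ± 12.1 in WT cortex (SD, n = 3 each). Its log2 difference there was 0.47 ± 0.16 (adjusted p = 0.291, limma). H2-K1, another such gene, differed by 0.44 ± 0.19 in hippocampus (adjusted p = 0.561, limma). The suffix of the H2-D1 and H2-K1 probe sets marks probes shared within a sequence family.

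The amino acid response genes, the Atf4 targets and partners among which synthetase genes and Xpot are counted, were listed without the members. Of 32 genes, 22 were kept. In hippocampus 3 of the 22 rose (Atf5, Nupr1 and Slc3a2) and 0 fell by limma, where 0.0358% of all kept probe sets rose. In cortex 1 rose (Atf5), where 0.0597% of all did, and in cerebellum 0 were called. In the mean of the regions 2 rose, where 0.179% of all were called. At an unadjusted p under 0.05, 14 were higher and 2 lower in KO in hippocampus, and 9 and 1 in cortex. In cerebellum 4 were higher and 0 lower, and in the mean of the regions 11 and 1. Of all kept probe sets, 8.41%, 10.2%, 12.1% and 10.1% were past it in that order. The medians were 0.45 in hippocampus, 0.18 in cortex and 0.16 in cerebellum, against 0.26, 0.19 and 0.13 for the 5 members. These genes were known to differ in these arrays when the list was made, so the list is not independent evidence of a direction. Psph, the last enzyme of serine synthesis, read 322, 403 and 419 in KO hippocampi, against 267, 269 and 259 in WT hippocampi (log2 difference 0.52 ± 0.12, adjusted p = 0.141, limma). Mthfd2, an enzyme of mitochondrial folate metabolism, had log2 differences of 0.78 ± 0.19 in hippocampus, 0.81 ± 0.19 in cortex and 0.66 ± 0.19 in cerebellum (adjusted p = 0.176, 0.0988 and 0.174, limma), none past the threshold.

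**Figure D4:**
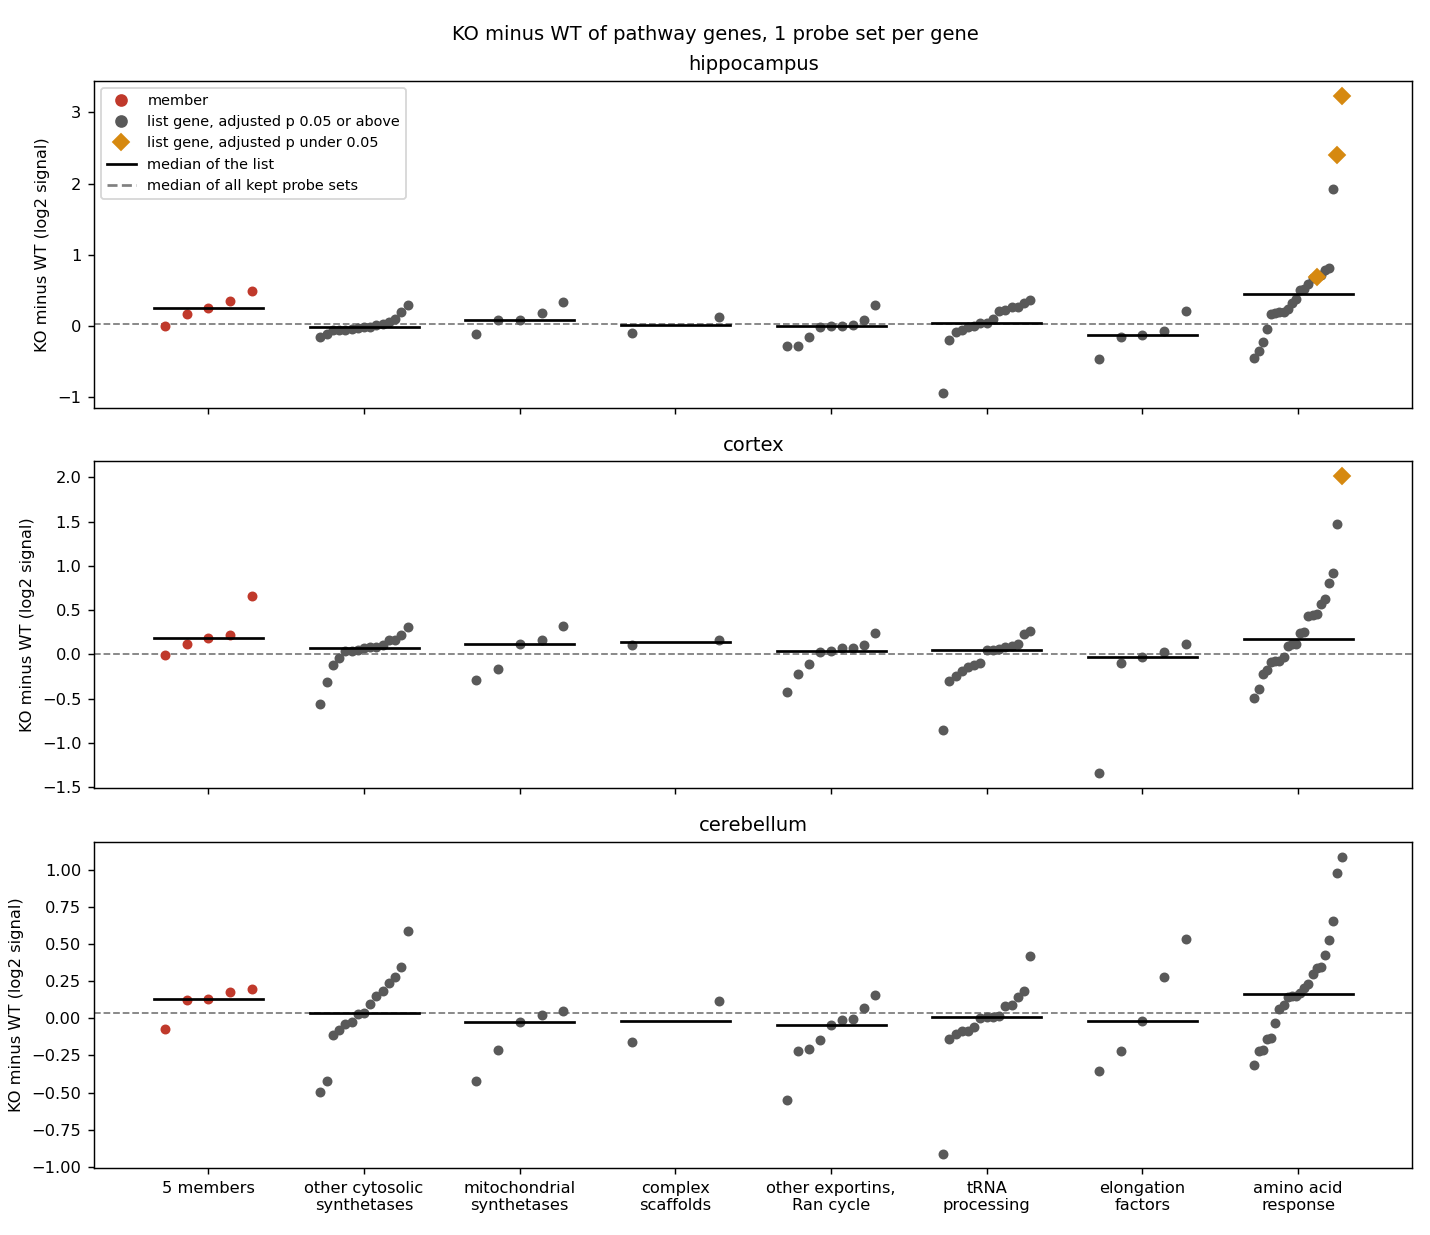
KO minus WT difference in log2 signal in each region for the members and the lists of related genes, with 1 point per gene (brightest kept probe set) and the median as a line. The 5 members have medians of 0.26, 0.19 and 0.13 in hippocampus, cortex and cerebellum, the 15 other cytosolic synthetases have -0.02, 0.07 and 0.04, and the 22 amino acid response genes have 0.45, 0.18 and 0.16.

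The probe sets most like each member were found by the correlation of log2 signals over the 18 arrays after region means were taken out. Animals give 3 arrays each and genotype stays in these values, so r is a description. For Lars the closest were Psph (r = 0.91), Acp1, a low molecular weight phosphatase (0.81), and Atf5, a stress-induced transcription factor (0.80). For Eprs they were Hexa (0.81), Cnn3 (0.80) and Ormdl1 (0.79), and for Sars they were Lypla1 (0.85), Atp2a3 (0.82, with 12 of 18 arrays under the floor) and 2810025M15Rik (0.82). For Wars 98606_s_at they were Rhoj (0.84), Cyp7b1 (0.81) and Trappc5 (0.80), and for Xpot they were Kcnab1 (0.84), Prpf31 (0.83) and Pithd1 (0.81). Rhoj and Trappc5 had cortical KO minus WT differences of 0.74 and 0.73, beside 0.66 for Wars 98606_s_at. Among the members themselves, Lars was closest to Eprs (0.54), Sars (0.50) and Wars 98606_s_at (0.48), while Xpot was closest to Sars (0.49) and had 0.08 with Eprs.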

How the data were processed

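Signal of 18 arrays (3 KO and 3 WT mice, 3 regions each) was analysed. Each value is a linear signal intensity of 1 probe set, scaled by the authors before it was deposited: the 2% trimmed mean was 150.07 to 150.08 on every array. The software behind it is not stated in the labels used here. Of 12488 probe sets, 66 controls were left out of the tests. Values under the 20th percentile, 9.46, were raised to it, log2 was taken, and 8382 probe sets above their array's 40th percentile on at least 3 arrays were kept. Groups were compared with limma 3.58.1 (R 4.3.3): 6 group means, an intensity trend, two-sided tests and Benjamini-Hochberg adjustment over all kept probe sets. The mean of the regions used 1 mean per animal. The fit was tested on simulated data.

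Each animal gave 3 arrays. The residual correlation between arrays had a median of 0.135 within an animal and -0.0634 between animals of 1 genotype, so the animal was also fitted as a replicate block. Replicates are separate animals per the labels. The members and gene lists were chosen with earlier results of these data known. A gene was represented by its brightest kept probe set. Named genes were, for each list, up to 4 past the threshold or the 2 of lowest p, and for each member the 3 probe sets of highest r. Also given where the rule did not name them are Iars, Farsa, Hars and Vars between WT regions, Psph and Mthfd2, and Sars2 and Tars2. So are Kars in hippocampus and cortex together, the other cytosolic enzymes named by sign, and Rhoj and Trappc5 in cortex. All of these were chosen after their values were seen.

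Alternatives were a filter at the 60th percentile or none, 16 added to the signal or no floor, quantile normalization, median centring, no trend, the replicate block, a region's own 6 arrays, both genotypes averaged for region differences, all kept probe sets of a gene averaged, and each animal left out.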

Additional observations from a re-analysis of the deposited data

Results flagged for a closer look

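Wars on probe set 98605_at had every KO array above every WT array in hippocampus (434, 397 and 422 in KO, against 356, 389.7 and 313 in WT, a log2 difference of 0.2477). In cerebellum the same probe set had every KO array below every WT array (327, 329.9 and 300.2 in KO, against 349, 331 and 336 in WT, a log2 difference of -0.087). The differences of the 2 regions had opposite signs, and the cerebellar one was smaller than its standard error of 0.0972. Of all kept probe sets, 10.4% were wholly above in hippocampus and 7.8% wholly below in cerebellum. The brighter Wars probe set, 98606_s_at, had log2 differences of 0.00 in hippocampus and 0.20 in cerebellum. The genotype by region interaction is not given for members, whose KO minus WT differences it uses. The cerebellar value of 98605_at was -0.162 after median centring and lay between -0.1115 and -0.0435 when an animal was left out.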

How the results depend on the processing

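The count of probe sets called between KO and WT in hippocampus (10) was 1 from the region's own 6 arrays and 3 to 22 when an animal was left out. In cortex (24) it was 3 from its own arrays and 6 to 32 without an animal. In cerebellum (3) it was 16 after median centring, 5 without the filter, 9 with the 60th percentile filter, 1 without the trend and 0 from its own arrays (limma), and 0 to 121 without an animal, with 121 without WT animal 3405. In the mean of the regions (15) it was 23 after median centring, 5 without the filter, 1 without the trend and 3 to 27 without an animal. The interaction (4) gave 1 without the trend and 0 to 5 without an animal. Between WT regions, averaging both genotypes gave 4093 (cerebellum and hippocampus, 2438) and 2042 (hippocampus and cortex, 1050), and leaving out an animal gave 1624 to 2428, 465 to 987, and 2306 to 3316 for cerebellum and cortex. The median difference of the 5 members in cortex was 0.1132 with all kept probe sets averaged. Without an animal it was 0.2253 to 0.3076 in hippocampus, 0.1603 to 0.2368 in cortex, 0.0218 to 0.3182 in cerebellum and 0.1726 to 0.2283 in the mean of the regions. The cause of these shifts was not tested, except that a region's own arrays and a left-out animal give fewer samples. The other cytosolic synthetases gave 0 calls between KO and WT in each setting by limma. With the animal as a replicate block the counts were 11, 25 and 3 in hippocampus, cortex and cerebellum, 4 for the interaction and 2608, 3620 and 1200 between WT regions, and the calls of Eprs and Xpot between WT regions named above were the ones it moved among the members. With both genotypes averaged, the cerebellum also differed from the hippocampus for Wars 98606_s_at (0.41, adjusted p = 0.00320), Wars 98605_at (-0.22, adjusted p = 0.0124) and Xpot (-0.47), and from the cortex for Lars (-0.22, adjusted p = 0.0154) and Xpot (-0.47), all by limma. The differences with both genotypes averaged were not fitted after median centring. A region's 3 arrays per genotype limit what the comparisons above can detect.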
